A study of Sus scrofa with 3 samples.

Results

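The genes described here encode enzymes and a chaperone that modify collagen inside the cell and crosslink it outside. They are the lysyl oxidases LOX, LOXL1, LOXL2, LOXL3 and LOXL4, the prolyl 4-hydroxylase alpha subunits P4HA1 and P4HA2, the lysyl hydroxylases PLOD1 and PLOD2, and SERPINH1, the collagen chaperone also known as HSP47. They were chosen by symbol, and all 10 had a row among the 26466 symbols of the count files. Expression was measured in pig (Sus scrofa) cells of 3 populations with 1 library each: mesenchymal stem cells derived from bone marrow (BM-MSC), cells that the labels call bone marrow attached cells (BMAC), and peripheral blood mononuclear cells (PBMC). No treatment, genotype, age or animal is given in the labels for any of the 3 groups, nor whether the cells were cultured or how they were purified, and it is not stated whether the populations came from the same pig.

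Collagen chains are hydroxylated as they enter the endoplasmic reticulum. Prolyl 4-hydroxylase, made of a catalytic alpha subunit and the protein disulfide isomerase P4HB, converts prolines so that the triple helix is stable at body temperature, and lysyl hydroxylases prepare lysines for sugar attachment and for crosslinks. SERPINH1 binds the folded triple helix until it leaves for the Golgi. After secretion, lysyl oxidases, which are copper enzymes, oxidise lysines of collagen and elastin so that neighbouring molecules become covalently joined. In marrow, stromal cells are the main producers of fibrillar collagen, and blood mononuclear cells make little of it.

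Total counts were 17069344 in BM-MSC, 15122997 in BMAC and 15445903 in PBMC. Levels are counts divided by the library total and multiplied by 1000000 (CPM), with exact 95% Poisson intervals in the plot, and folds are ratios of CPM with exact 95% intervals in parentheses. Both cover counting error only. No difference has a replicate check, no test between populations was possible, and no p-value is given. Differences were read by a size rule, a log2((CPM + 1)/(CPM + 1)) of at least 2 (4-fold) in a gene measured at 10 CPM or more in at least 1 library of the pair. In such bulk samples, fewer cells of a type and less RNA per cell cannot be told apart. The labelled cell types had their defining transcripts. All 10 stromal markers reached 10 CPM in BM-MSC and in BMAC, and 1 of them, THY1, did so in PBMC. THY1 stood at 363.9 CPM in BM-MSC and 69.8 in BMAC, against 48.7 CPM in PBMC, and was the 1 stromal marker not past the rule in BMAC against PBMC (1.43-fold, 1.30 to 1.575). LUM, BGN and SPARC, which overlaps LOC110257252, had 0 counts in PBMC. The 10 leukocyte markers summed to 4.80 CPM in BM-MSC and 2.64 in BMAC, against 5012 CPM in PBMC.

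Some rows of genes that overlap in the annotation had nearly equal counts, so the same reads may stand in both, and 4 of the 10 genes have such a neighbour with a sizeable count. An example outside the 10 is P4HB, with 6972, 8993 and 1132 counts in BM-MSC, BMAC and PBMC. Its overlapping row LOC110255936 had 6833, 8856 and 1121. LOX overlaps LOC100525452, which held 4953 counts in BM-MSC, 7270 in BMAC and 94 in PBMC, more than LOX itself in each library. LOXL3 overlaps HTRA2 (844, 820 and 29 counts), P4HA1 overlaps NUDT13 (513, 927 and 607 counts) and P4HA2 overlaps PDLIM4 (1583, 1182 and 4 counts). The values of LOX, LOXL3, P4HA1 and P4HA2 are uncertain to that extent. LOXL2, LOXL4, PLOD1 and PLOD2 overlap no other row, and the rows overlapping LOXL1 and SERPINH1 held at most 2.57% of their counts in the marrow libraries. In PBMC the few counts stand beside those of overlapping rows, with 29 for the row LOC110261566 beside 7 for LOXL1, 8 for LOC102161477 beside 2 for SERPINH1, and 38 for SLC22A4 beside 77 for P4HA2.

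The 10 genes together took 1740 CPM in BM-MSC and 3085 in BMAC, against 68.7 CPM in PBMC. The summed level was 25.3-fold higher in BM-MSC (23.8 to 27.0) and 44.9-fold higher in BMAC (42.3 to 47.8) than in PBMC. In BM-MSC 9 of the genes stood above 10 CPM and in BMAC all 10 did, while in PBMC P4HA1 alone did. All 10 were higher in both marrow libraries than in PBMC, and 9 of the 10 were lower in BM-MSC than in BMAC. The exception was SERPINH1.

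**Figure D1:**
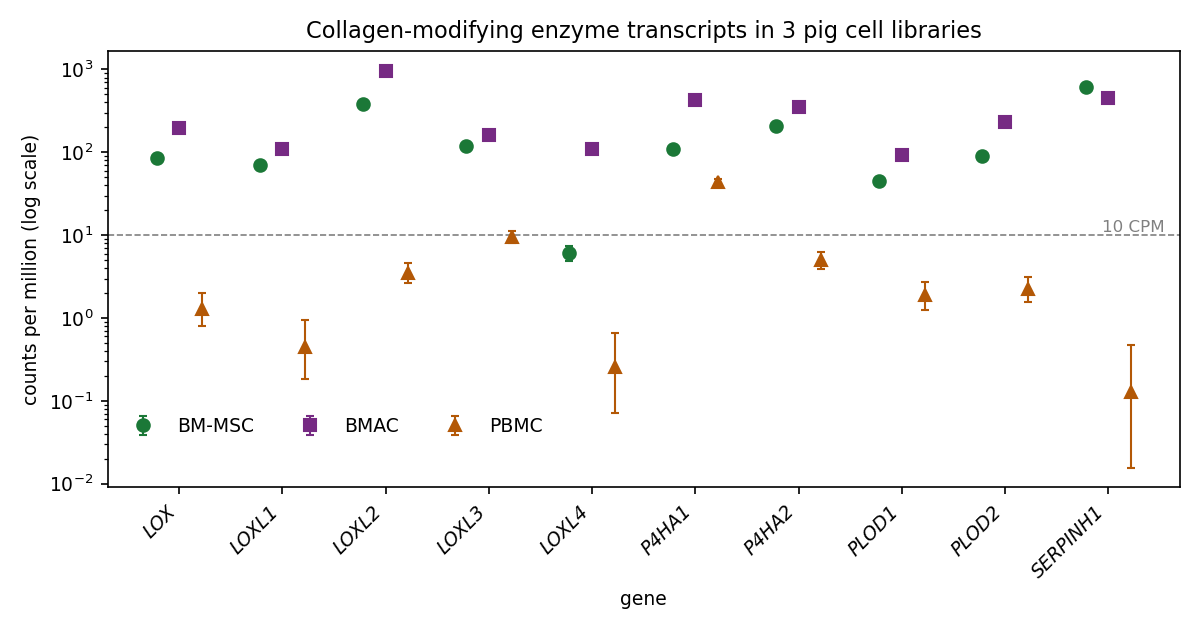
Level of each of the 10 genes in CPM on a log axis, for BM-MSC (green circles), BMAC (purple squares) and PBMC (orange triangles). Bars are exact 95% Poisson intervals for counting error, 1 library per population, and P4HA1 is the only gene of PBMC above the dashed line at 10 CPM.

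LOXL2, a lysyl oxidase with scavenger receptor domains that acts on basement membrane and fibrillar collagens, stood at 386 CPM (6597 counts) in BM-MSC and 954 CPM (14430 counts) in BMAC, against 3.50 CPM (54 counts) in PBMC. It was 110.5-fold higher in BM-MSC (84.6 to 147) and 273-fold higher in BMAC (209 to 363.5) than in PBMC. LOX, the founding enzyme of the family, stood at 84.8 CPM in BM-MSC and 196 in BMAC, against 1.29 CPM from 20 counts in PBMC. That made it 65.5-fold (42.3 to 107.6) and 151-fold (97.6 to 248) higher in the marrow libraries. The row LOC100525452, which overlaps LOX, showed a similar order, at 290.2, 480.7 and 6.09 CPM in BM-MSC, BMAC and PBMC.

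LOXL1, which is known from mice for its part in elastic fibre renewal, stood at 70.8 CPM in BM-MSC and 109.5 in BMAC, against 0.453 CPM from 7 counts in PBMC. Its fold over PBMC was 156 in BM-MSC (75.6 to 389) and 242 in BMAC (117 to 602). LOXL3, a close paralog of LOXL2, stood at 121 CPM in BM-MSC and 163 in BMAC, against 9.58 CPM from 148 counts in PBMC. The differences, 12.6-fold (10.7 to 15.01) and 17.1-fold (14.4 to 20.3), were the smallest CPM ratios of the family in each marrow library. On the log2 scale with 1 CPM added, LOXL4 was lower in BM-MSC against PBMC, at 2.48 beside 3.53 for LOXL3.

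LOXL4, the remaining lysyl oxidase, separated the marrow libraries. It had 103 counts (6.03 CPM) in BM-MSC and 1644 counts (108.7 CPM) in BMAC, against 4 counts (0.259 CPM) in PBMC. BM-MSC and PBMC were both under 10 CPM, so the 23.3-fold difference between them (8.83 to 87.1) lies outside the size rule. BMAC was 420-fold above PBMC (164 to 1542).

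P4HA1, the broadly expressed prolyl 4-hydroxylase alpha subunit, was as counted the gene of the group with the smallest CPM ratio to blood. That order changed when the whole count of its overlapping row was taken off. How many reads the rows share is not known. It stood at 108.5 CPM in BM-MSC and 427 in BMAC, against 44.3 CPM in PBMC. BM-MSC exceeded PBMC 2.45-fold (2.24 to 2.675), below the rule, and BMAC exceeded it 9.64-fold (8.91 to 10.4). In PBMC the overlapping row NUDT13 held 607 counts beside the 685 of P4HA1, or 88.6%, against 27.7% in BM-MSC and 14.3% in BMAC. With the count of NUDT13 taken off P4HA1 in each library, the log2 ratio of BM-MSC to PBMC was 3.71 in place of 1.27, which is past the rule, and that of BMAC to PBMC 5.92 in place of 3.24. LOXL3, less HTRA2, then had the smaller ratio, at 3.06 in BM-MSC and 3.66 in BMAC. P4HA2, the second alpha subunit, stood at 211 CPM in BM-MSC and 349 in BMAC, against 4.99 CPM in PBMC. It was 42.3-fold (33.7 to 53.7) and 69.9-fold (55.8 to 88.7) higher. With PDLIM4 alone taken off P4HA2, its log2 ratio to PBMC was 4.38 in BM-MSC, above P4HA1 less NUDT13, and 5.57 in BMAC, below it. SLC22A4, with 38 counts in PBMC beside the 77 of P4HA2, was not taken off. The order of P4HA1 and P4HA2 in BMAC is therefore uncertain.

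Both lysyl hydroxylases were low in blood. PLOD2, which hydroxylates the telopeptide lysines used in pyridinoline crosslinks, stood at 90.7 CPM in BM-MSC and 229 in BMAC, against 2.27 CPM from 35 counts in PBMC, a difference of 40.02-fold (28.65 to 57.7) and 101-fold (72.6 to 145.5). PLOD1, which acts on lysines of the helix, stood at 45.3 CPM in BM-MSC and 91.7 in BMAC, against 1.88 CPM from 29 counts in PBMC. It was 24.2-fold (16.7 to 36.3) and 48.8-fold (33.9 to 73.2) higher.

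SERPINH1 had the widest separation from blood. It was counted 10511 times in BM-MSC (616 CPM) and 6914 times in BMAC (457 CPM), against 2 times in PBMC (0.129 CPM). The resulting folds, 4756 in BM-MSC (1316 to 39270) and 3531 in BMAC (977 to 29160), rest on those 2 counts. Its log2 ratio to PBMC ranked 16th from the top of 11428 measured genes in BM-MSC and 20th of 11371 in BMAC.

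**Figure D2:**
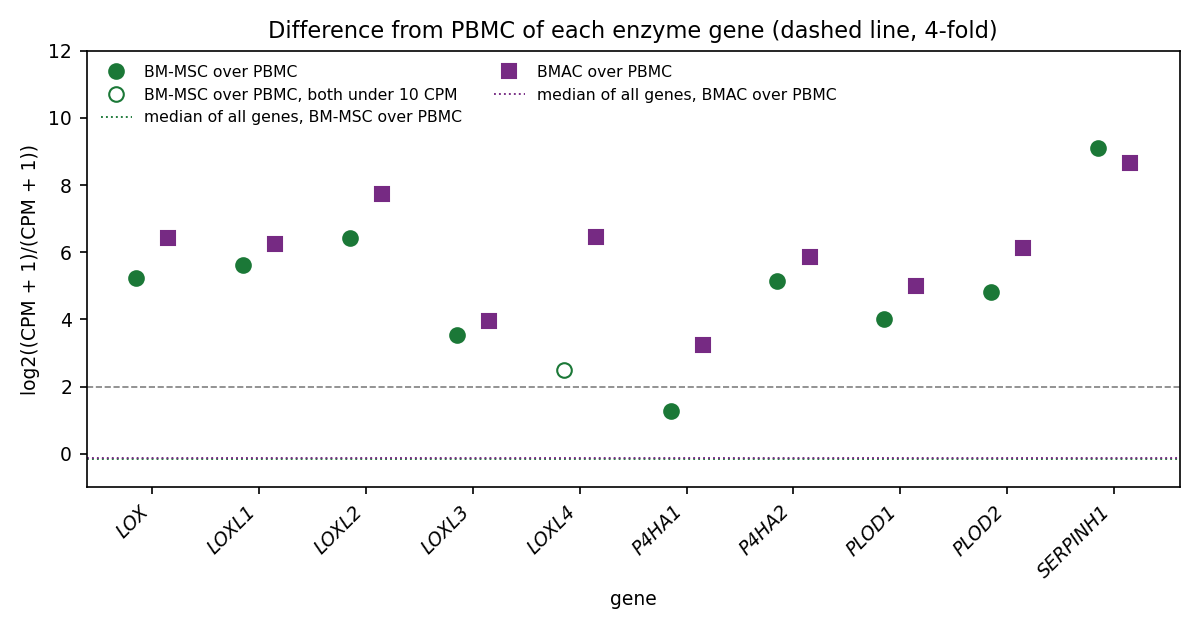
Log2 ratio, after adding 1 CPM, of BM-MSC (green circles) and BMAC (purple squares) to PBMC for each of the 10 genes. The open circle is LOXL4, under 10 CPM in both BM-MSC and PBMC, the dashed line is the 4-fold rule, the dotted lines near 0 are the medians of all measured genes, and P4HA1 in BM-MSC is the 1 measured value below the rule.

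By the size rule 8 of the 9 measured genes were higher in BM-MSC than in PBMC, beside 14.3% of all measured genes, and the median log2 ratio was 5.14 beside -0.16 for all measured genes. All 10 were higher in BMAC than in PBMC, beside 14.0% of all measured genes, with a median of 6.19 beside -0.12. Genes lower in the marrow library by the rule were 15.7% of all in BM-MSC and 12.8% of all in BMAC, and 0 of the 10 were among them. Of the measured members, 8 of 9 in BM-MSC and 9 of 10 in BMAC reached 10 CPM through the marrow library alone, which favours a call in that direction, so the counts describe these genes and support nothing further. Of all genes past the rule in BM-MSC against PBMC, 47.6% were higher in BM-MSC, and 58.5% with TMM factors. The comparisons share the PBMC library.

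Other genes that hydroxylate, fold or escort collagen were mostly higher in the marrow libraries than in PBMC. Of 19 measured in this list of 20, 12 were higher and 1 lower in BM-MSC by the rule (median log2 ratio 2.46), and 15 were higher and 0 lower in BMAC (median 2.66). Of all measured genes, 14.3% were higher and 15.7% lower in BM-MSC, and 14.0% higher and 12.8% lower in BMAC. In each comparison 10 of the 19 reached 10 CPM through the marrow library alone. FKBP10, a prolyl isomerase that assists collagen folding and PLOD2, stood at 94.3 CPM in BM-MSC and 184 in BMAC, against 0.259 CPM in PBMC. P3H4, a partner of lysyl hydroxylase in the endoplasmic reticulum, stood at 46.9, 93.1 and 0.194 CPM in BM-MSC, BMAC and PBMC. The prolyl 3-hydroxylase family member P3H3 was 43.7-fold (21.9 to 102) and 72.6-fold (36.6 to 169) above PBMC, FKBP14 48.0-fold (35.5 to 66.5) and 32.6-fold (24.1 to 45.3), and the retrieval receptor KDELR3 65.9-fold (38.4 to 124) and 70.5-fold (41.0 to 133).

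P4HB, which also serves as a disulfide isomerase for other proteins, stood at 408 CPM in BM-MSC and 595 in BMAC, against 73.3 CPM in PBMC, which made BM-MSC 5.57-fold (5.23 to 5.94) and BMAC 8.11-fold (7.63 to 8.64) higher, with the near-equal overlapping row given above. The members of the prolyl 3-hydroxylase complex were P3H1 at 4.12-fold (3.32 to 5.14, below the rule after the pseudocount) and 5.78-fold (4.68 to 7.18), CRTAP at 7.24-fold (6.43 to 8.16) and 6.57-fold (5.83 to 7.43), and PPIB, which overlaps SNX22, at 2.94-fold (2.68 to 3.23, below the rule) and 4.69-fold (4.29 to 5.14). The third lysyl hydroxylase PLOD3, which also carries glycosyltransferase activity and overlaps ZNHIT1, was 4.93-fold (4.06 to 6.02) and 6.13-fold (5.06 to 7.47) above PBMC, less than PLOD1 or PLOD2 in both libraries. TMEM38B, an ion channel of the endoplasmic reticulum, was the lower gene, at 3.46 CPM in BM-MSC and 7.93 in BMAC, against 24.1 CPM in PBMC. This gene was singled out after its values were seen.

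The procollagen processing list holds proteinases that trim the secreted molecule, their enhancers, and TGM2, a transglutaminase. It was higher than in PBMC for 4 of 7 measured genes in BM-MSC, beside 14.3% of all genes, and for 4 of 6 in BMAC, beside 14.0%, and lower for 0. Of these, 4 of the 7 and 3 of the 6 reached 10 CPM through the marrow library alone. BMP1, the C-proteinase that also activates pro-LOX, stood at 44.9 CPM in BM-MSC and 87.9 in BMAC, against 0.518 CPM in PBMC. PCOLCE2, an enhancer of that proteinase, stood at 178, 71.9 and 2.78 CPM, and the N-proteinase ADAMTS2 at 55.7, 54.4 and 10.1 CPM in BM-MSC, BMAC and PBMC.

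Set against each other, the marrow libraries differed in amount, and by the 4-fold rule in LOXL4 alone. LOXL4 was 18.0-fold lower in BM-MSC (14.8 to 22.2) than in BMAC, and its log2 ratio of -3.96 was the 59th lowest of 10303 measured genes. P4HA1 was just outside the rule, 3.94-fold lower in BM-MSC (3.74 to 4.15; log2 ratio -1.97), and passed it with the overlapping NUDT13 taken off (-2.21). PLOD2 was 2.53-fold (2.38 to 2.69), LOXL2 2.47-fold (2.40 to 2.54) and LOX 2.31-fold (2.165 to 2.46) lower in BM-MSC. PLOD1 was 2.02-fold lower (1.85 to 2.21).

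Smaller differences in the same direction were found for P4HA2 (1.65-fold lower in BM-MSC, 1.58 to 1.73), LOXL1 (1.55-fold, 1.44 to 1.67) and LOXL3 (1.35-fold, 1.27 to 1.43). SERPINH1 went the other way, 1.35-fold higher in BM-MSC (1.31 to 1.39). The 4-fold rule thus held for 1 of the 10, lower in BM-MSC, beside 3.21% of all measured genes lower and 2.90% higher. At 2-fold, 6 of the 10 were lower and 0 higher, beside 11.1% of all genes lower and 8.20% higher. In any amount, 9 of 10 were lower in BM-MSC, beside 55.4% of all genes. The median log2 ratio of the 10 was -1.10, and that of all measured genes -0.09. PLOD1 lies at the 2-fold limit with a log2 ratio of -1.0004 and falls short of it at -0.95 with TMM factors.

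**Figure D3:**
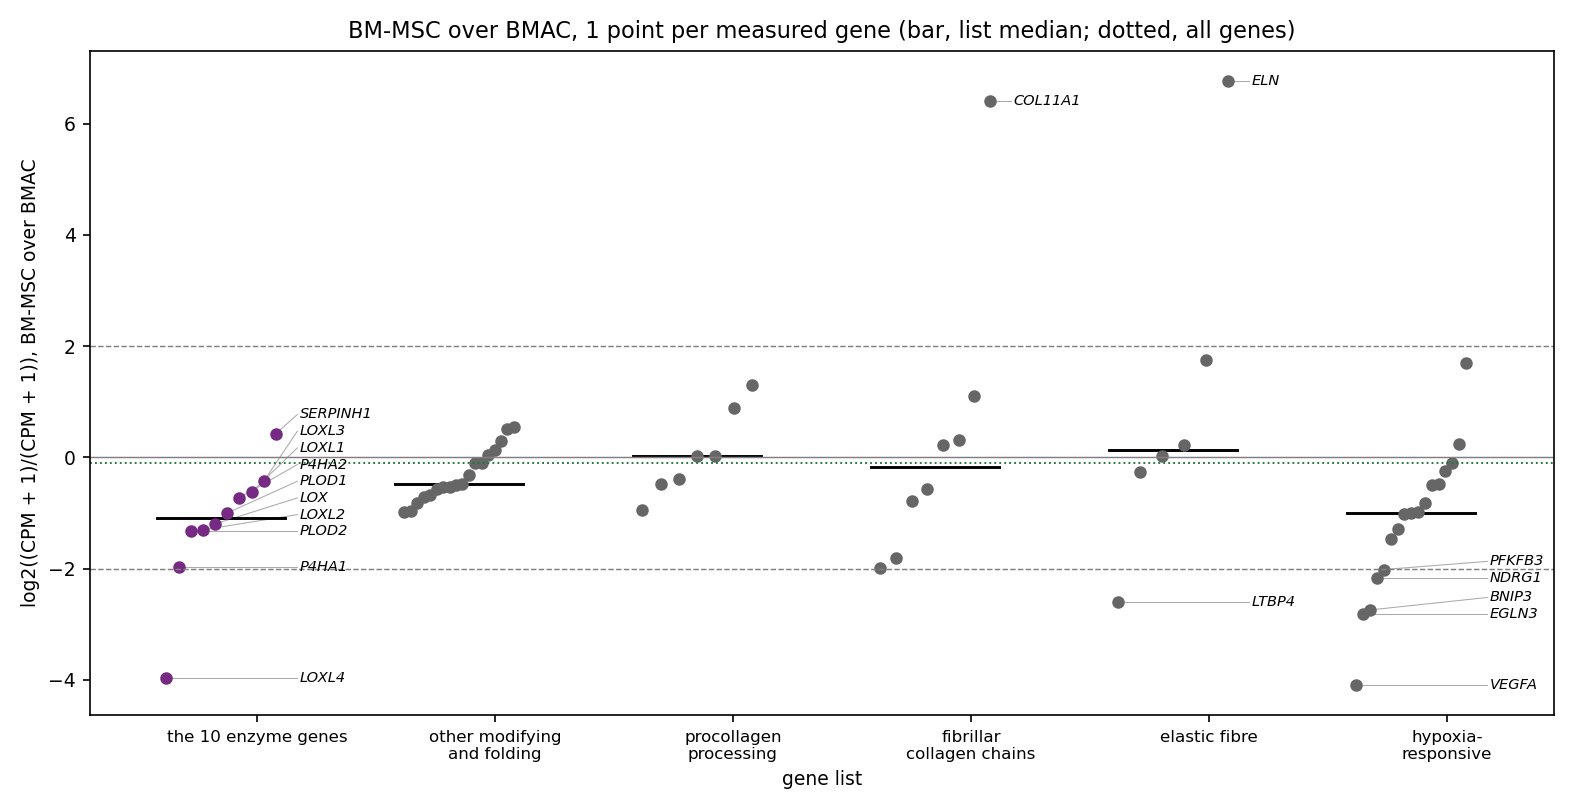
Log2 ratio, after adding 1 CPM, of BM-MSC to BMAC for each measured gene of 6 lists, 1 point per gene. Black bars are list medians, the dotted line is the median of all measured genes, dashed lines mark 4-fold in each direction, and the collagen-modifying enzymes lie below 0 except SERPINH1.

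The other collagen-modifying and folding genes leaned the same way by a smaller median, and the procollagen processing genes did not. Of the former, 0 of 18 measured passed even the 2-fold rule, beside 11.1% of all genes lower and 8.20% higher. In any amount 13 of the 18 were lower in BM-MSC, beside 55.4% of all genes. The median log2 ratio of all measured genes was -0.09, and that of the 18 was -0.49. Those nearest to the 2-fold rule were P3H4 (1.98-fold lower in BM-MSC, 1.82 to 2.17), FKBP10 (1.95-fold, 1.83 to 2.07), P4HA3, the third alpha subunit (1.79-fold, 1.63 to 1.96), and P3H3 (1.66-fold, 1.46 to 1.90). P4HB was 1.46-fold lower (1.41 to 1.502) and PLOD3 1.24-fold lower (1.12 to 1.38). The procollagen processing list had a median of 0.03, with PCOLCE2 2.47-fold higher in BM-MSC (2.305 to 2.65) and BMP1 1.96-fold lower (1.79 to 2.14).

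The composition of the families differed as well as their sum. Genes can differ in how completely their reads were counted, so only the share of 1 gene between libraries is compared. This does not remove reads shared with overlapping rows, whose size relative to the gene differed between libraries. LOX and LOXL3 have such rows, and the lysyl oxidase shares were not recomputed without them. LOXL2 held 57.8% (56.85 to 58.7) of lysyl oxidase counts in BM-MSC and 62.3% (61.7 to 62.9) in BMAC, against 23.2% (17.9 to 29.1) of the 233 counts in PBMC. LOXL3 held 18.1% in BM-MSC and 10.7% in BMAC, against 63.5% (57.0 to 69.7) in PBMC. LOXL4 held 0.902% (0.737 to 1.09) in BM-MSC and 7.10% (6.77 to 7.44) in BMAC, against 1.72% (0.470 to 4.34) in PBMC. The share of LOX was 12.7% in BM-MSC and 12.8% in BMAC, with overlapping counting intervals (12.1 to 13.3 and 12.35 to 13.2), against 8.58% (5.32 to 12.95) in PBMC.

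Between the alpha subunits P4HA1 and P4HA2, P4HA1 held 34.0% (32.7 to 35.3) of the counts in BM-MSC and 55.1% (54.2 to 56.0) in BMAC, against 89.9% (87.5 to 91.9) in PBMC. With the counts of NUDT13 and PDLIM4 taken off, the shares were 39.9% (38.3 to 41.6), 57.5% (56.5 to 58.5) and 51.7% (43.4 to 59.9). The order of BM-MSC below BMAC was the same in both forms. The share in PBMC was lower in the second form, but there the 38 counts of SLC22A4 were left in P4HA2. Whether the share of P4HA1 in PBMC lies above that in BMAC is thus uncertain. Among the lysyl hydroxylases PLOD2 held 51.7% (49.8 to 53.5) in BM-MSC and 61.9% (60.7 to 63.2) in BMAC, against 18.6% (13.3 to 24.9) in PBMC. PLOD3 held 22.5% in BM-MSC and 13.3% in BMAC, against 65.96% (58.7 to 72.7) in PBMC. Its overlapping row ZNHIT1 held 736 counts beside 675 of PLOD3 in BM-MSC, and 1046 beside 744 in BMAC. The lysyl hydroxylase shares were not recomputed without that row and are uncertain to that extent.

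**Figure D4:**
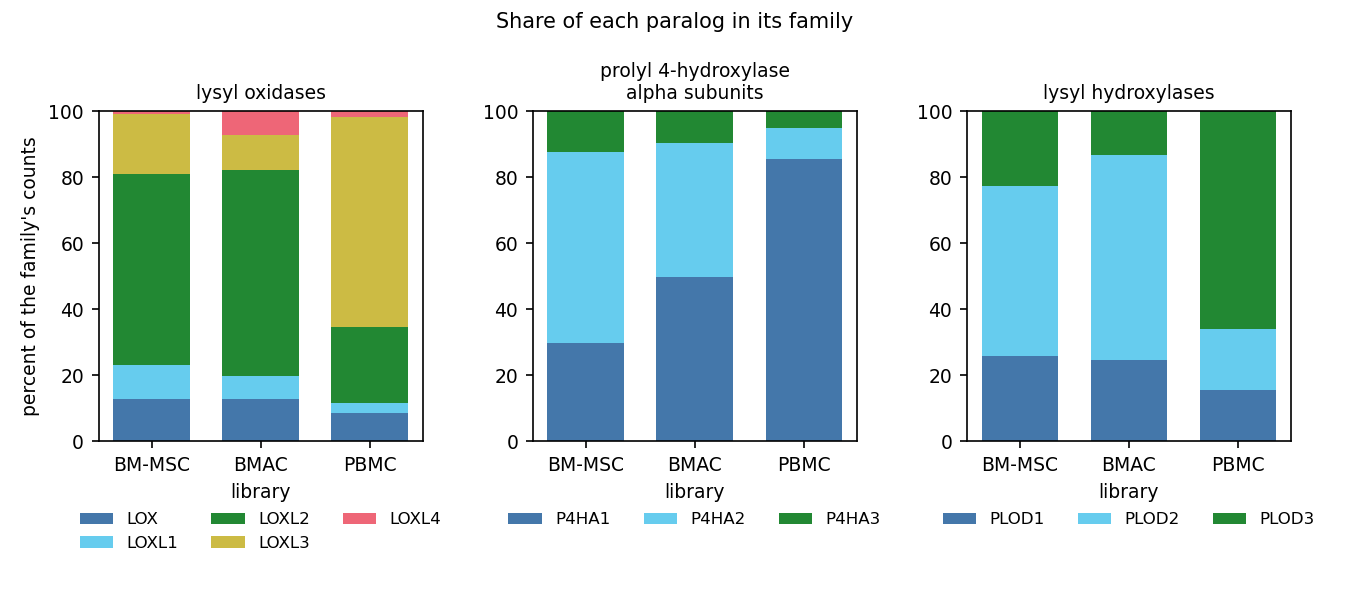
Percent of the counts of each enzyme family that each paralog held in BM-MSC, BMAC and PBMC, 1 stacked bar per library. The share of LOXL2 is larger and that of LOXL3 smaller in both marrow libraries than in PBMC, and the share of P4HA1 is smaller in BM-MSC than in BMAC. The alpha subunits include P4HA3 here, with P4HA1 at 29.8% in BM-MSC, 49.9% in BMAC and 85.5% in PBMC. The shares in the text are of P4HA1 and P4HA2 alone. Counts of overlapping rows were not taken off.

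The substrates did not follow the enzymes as a group. Type I collagen is built from the products of COL1A1, at 6893 CPM in BM-MSC against 3219 in BMAC, and of COL1A2, at 4804 CPM in BM-MSC against 4120 in BMAC. COL3A1, type III collagen, stood at 857.5 CPM in BM-MSC, against 3003 CPM in BMAC, and COL5A1 at 63.9 CPM, against 255 CPM. COL11A1, which overlaps LOC110260367, stood at 853 CPM in BM-MSC, against 9.06 CPM in BMAC (94.2-fold higher in BM-MSC, 79.6 to 112). Of 8 fibrillar chains measured, 4 were higher and 4 lower in BM-MSC in any amount, beside 55.4% of all genes lower.

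Relative to the summed level of COL1A1, COL1A2 and COL3A1 (12550 CPM in BM-MSC and 10340 in BMAC), 9 of the 10 genes were lower in BM-MSC. This ratio does not depend on how the libraries are scaled. The summed collagen level was itself higher in BM-MSC, as was COL1A1 alone, which lowers such a ratio there for any gene. The share of all genes lower by this ratio was not computed, so the count describes the 10 genes only. Per 1000 CPM of these collagens, LOXL2 stood at 30.8 CPM in BM-MSC and 92.3 in BMAC, P4HA1 at 8.64 and 41.3 CPM, PLOD2 at 7.22 and 22.2 CPM, and LOX at 6.76 and 18.9 CPM. SERPINH1 differed least, at 49.05 CPM in BM-MSC and 44.2 in BMAC, a ratio of 1.11. The direction depended on the collagen chosen. Against COL1A1 alone all 10 were lower in BM-MSC, and against COL3A1 alone 8 of 10 were higher, with LOXL4 and P4HA1 still lower.

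**Figure D5:**
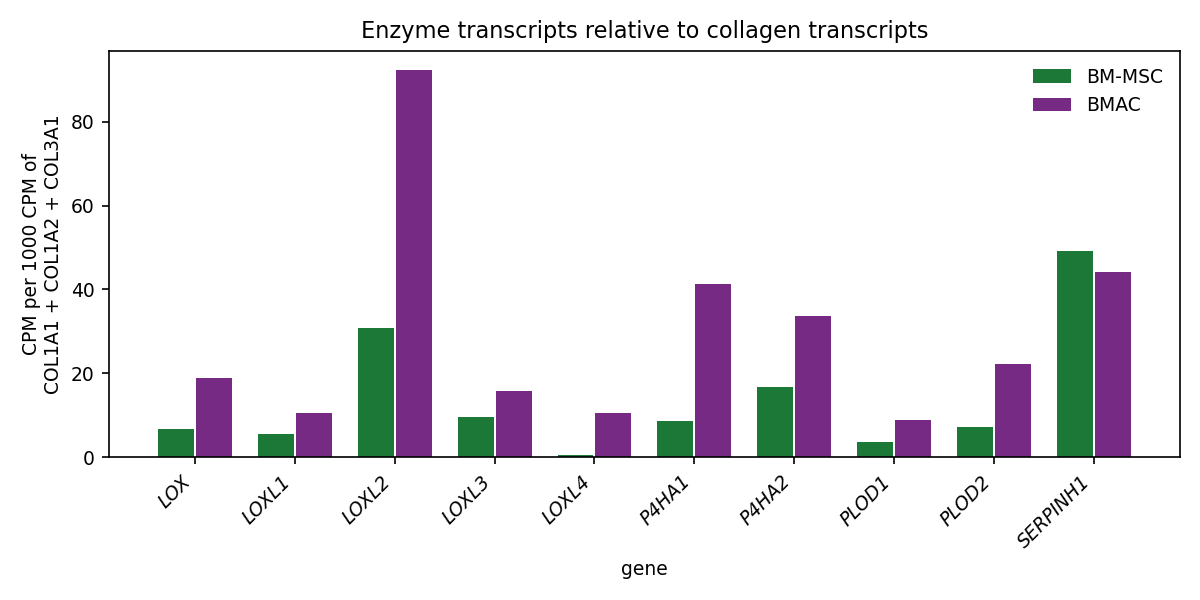
Level of each of the 10 genes in CPM per 1000 CPM of COL1A1, COL1A2 and COL3A1 together, in BM-MSC (green) and BMAC (purple), 1 library each and no error bars. The bars of BM-MSC are shorter for every gene but SERPINH1, at 49.05 against 44.2.

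Elastic fibre genes, which include that of elastin, the other lysyl oxidase substrate named above, showed a different pattern between the marrow libraries. ELN, which encodes tropoelastin, had 129.6 CPM in BM-MSC against 0.198 CPM from 3 counts in BMAC, and was 654-fold higher in BM-MSC (223 to 3172), while LOX and LOXL1 were lower there. In PBMC it stood at 0.777 CPM. FBLN5, which helps assemble elastin and overlaps TRIP11, was 3.46-fold higher in BM-MSC (3.14 to 3.81), and LTBP4, which overlaps LOC106507592, was 7.01-fold lower (5.64 to 8.80). FBN1, a fibrillin, was 1.205-fold lower in BM-MSC (1.18 to 1.23), and for LTBP2, which overlaps ISCA2, the counting interval of the fold (0.991 to 1.04) included 1.

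P4HA1, P4HA2, PLOD2 and LOX are known as targets of hypoxia-inducible factors, and 18 other hypoxia-responsive genes were set beside them. Of 17 measured between the marrow libraries, 5 were lower and 0 higher in BM-MSC by the 4-fold rule, beside 3.21% and 2.90% of all genes, and 4 were lower with TMM or median-of-ratios factors. At 2-fold 8 were lower and 1 higher, beside 11.1% and 8.20% of all genes, and the median log2 ratio was -1.0, beside -0.09 for all measured genes. VEGFA was 18.1-fold (15.9 to 20.7), EGLN3 11.7-fold (7.57 to 19.1), BNIP3 6.76-fold (6.39 to 7.15) and NDRG1 4.52-fold (4.33 to 4.73) lower in BM-MSC. SLC2A1, the glucose transporter, which overlaps ZNF691, was 1.19-fold higher (1.11 to 1.27), and ADM differed by 1.07-fold with a counting interval that includes 1. Against PBMC 4 were higher and 4 lower in BM-MSC, beside 14.3% and 15.7% of all genes, and 5 higher and 2 lower with TMM or median-of-ratios factors. In BMAC 8 were higher and 0 lower than in PBMC, beside 14.0% and 12.8% of all genes. Whether the level of these genes had a part in that of the enzymes was not tested.

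Markers of other cell types were mostly low in the marrow libraries. CTSK, ERG and ITGB3 were exceptions, higher than in PBMC by the rule in both. PTPRC (CD45), a leukocyte phosphatase, stood at 1.11 CPM in BM-MSC and 1.85 in BMAC, against 2884 CPM in PBMC, and LAPTM5 at 0.176 CPM in BM-MSC and 0.198 in BMAC, against 981 CPM in PBMC. The 8 endothelial markers summed to 71.5 CPM in BM-MSC and 113 in BMAC, against 171 CPM in PBMC. Of these, PECAM1 and ERG reached 10 CPM in BM-MSC and in BMAC, while CDH5 and KDR stayed at or below 0.527 CPM in both. ERG was 7.96-fold higher in BM-MSC and 12.15-fold higher in BMAC than in PBMC. It was the 1 endothelial marker higher by the rule, with 2 lower, among 3 measured against PBMC in each marrow library. The 8 osteoclast and macrophage markers summed to 915 CPM in BM-MSC and 225 in BMAC, against 118 CPM in PBMC. Of these, CTSK, whose overlapping row ARNT held 707 counts beside its 226 in PBMC, reached 10 CPM, at 911 CPM in BM-MSC and 222 in BMAC, and CSF1R was at 0 counts in BM-MSC and 0.132 CPM in BMAC. The 7 platelet markers with a row summed to 71.2 CPM in BM-MSC and 68.8 in BMAC, against 47.8 CPM in PBMC. Of these, GP9, which overlaps RAB43, and ITGB3 reached 10 CPM in both, and GP1BB was at 0 counts in all 3 libraries. ITGB3 was 6.49-fold higher in BM-MSC and 8.08-fold higher in BMAC than in PBMC. It was the 1 platelet marker higher by the rule, with 1 lower, among 3 measured against PBMC in each marrow library. The part of such cells in the levels of the enzymes was not tested.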

How the data were processed

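The data are 3 libraries of 3' end sequencing, 1 per population. Trizol RNA, 500 ng per library, went into the Lexogen QuantSeq kit, per the labels' protocols. The deposited values are raw counts per gene symbol, judged from whole numbers whose totals differ. The column of the BM-MSC sample is headed pMSC, a name that the labels do not explain, and was taken as BM-MSC because it is deposited under that sample. The tools listed per the submitters' processing notes are Bowtie2 and bedtools, with no version and no role. Not given in the sources used here are the build, annotation, strand setting and treatment of reads with several positions. Gene overlaps were read from a RefSeq gene table (assembly Sscrofa11.1), used for names and neighbours only, and all 26466 symbols matched it. A gene whose overlapping row held at least 25% of its count, in a library where the gene reached 10 CPM, was named with that row. Because counts near the 3' end were not scaled by length, levels of different genes were not ranked.

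Rows with the same symbol were summed, counts were divided by library totals, and log2 ratios took a pseudocount of 1 CPM. The size rule was 4-fold with 10 CPM and 10 counts in the higher library. Intervals were exact Poisson for levels, exact conditional for folds and exact binomial (Clopper-Pearson) for shares. The rule was checked on simulated counts. The 10 genes and the lists were chosen with earlier results of these data known. Genes named beside the members were, of each list, up to 5 with the largest absolute log2 ratio in BM-MSC against PBMC and up to 4 in BM-MSC against BMAC, plus P4HB, PLOD3, P3H1, CRTAP, PPIB, FKBP10, COL1A1, COL1A2 and COL3A1, and the 3 nearest genes to LOX and to SERPINH1. TMEM38B, LUM, CDH5, KDR and GP1BB were added after their values were seen. A planned description of promoter motifs was not run. Alternatives were TMM factors (edgeR 4.0.16), median-of-ratios factors, totals without ribosomal RNA and mitochondrial rows, other pseudocounts, floors and folds, and 2 treatments of overlapping rows. Python 3.11.15, pandas 2.3.3 and scipy 1.17.1 were used.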

Additional observations from a re-analysis of the deposited data

How the results depend on the processing

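No direction of any of the 10 genes reversed in any pair under the scalings and pseudocounts tried. Nor did that of LOXL3, P4HA1 and P4HA2 with the counts of HTRA2, NUDT13 and PDLIM4 taken off. LOX was left out of that setting, and the counts of the remaining genes were not altered by it. The rows overlapping LOXL1 and SERPINH1, and SLC22A4, were not taken off. With other scalings and pseudocounts, 113 recomputed single-gene log2 ratios stayed within the counting interval and 37 moved beyond it. With overlapping rows taken off, 19 stayed and 8 moved, but the ratios of genes whose counts were not altered could not move. Scaling changed the median of all measured genes, by TMM and median-of-ratios factors to 0.23 and 0.26 in BM-MSC against PBMC and to 0.21 and 0.22 in BMAC against PBMC. The log2 ratios of the members to PBMC were higher under both factors by unequal amounts, with SERPINH1 in BM-MSC at 9.24 in place of 9.09 and P4HA1 at 1.60 in place of 1.27 under TMM factors. It also changed the share of 4-fold genes that were higher in BM-MSC than in PBMC to 58.5% and 59.5%, from 47.6%. The member counts by the rule did not change with scaling. The median log2 ratio of the members was 3.80 in BM-MSC and 4.71 in BMAC against PBMC with a pseudocount of 5 CPM, which lowers ratios to a level near 0, and -1.01 in BM-MSC against BMAC without ribosomal RNA and mitochondrial rows. Leaving out the 4 overlapping genes left 5 of 5 past the rule in BM-MSC against PBMC and 6 of 6 in BMAC against PBMC, since fewer genes remained.

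Taking off the counts of overlapping rows was chosen after seeing the data. It left no count for LOX, gave medians of 4.59 in BM-MSC against PBMC and, in BM-MSC against BMAC, -1.19, where it put 2 genes past the rule, LOXL4 and P4HA1. A 2-fold rule there gave 6 genes, and 1 procollagen processing gene. The median enzyme-to-collagen log2 ratio of BM-MSC to BMAC, -1.39, was -2.21 with COL1A1 alone as the denominator and reversed to 0.70 with COL3A1 alone, both chosen after seeing the data, because COL3A1 itself was lower in BM-MSC. Other collagen-modifying genes past the rule in BM-MSC against PBMC were 7 with a floor of 50 CPM, in place of 13. Hypoxia-responsive genes past it were 4 with a pseudocount of 5 CPM, 5 at a 50 CPM floor and 13 at 2-fold in BM-MSC against PBMC, in place of 8, then 14 at 2-fold in BMAC against PBMC, in place of 8, and 3 with a pseudocount of 5 CPM and 9 at 2-fold in BM-MSC against BMAC, in place of 5. The main limit is 1 library per population: intervals leave out variation between animals, cultures and preparations. Below about 10 CPM (154 counts in PBMC) most of the genes of PBMC rest on few counts.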

Other observations

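The enzymes depend on copper, ascorbate and 2-oxoglutarate, and a list of genes that supply these was set beside them. Of 6 measured, 2 were higher and 0 lower in BM-MSC than in PBMC by the 4-fold rule, beside 14.3% and 15.7% of all genes, and 0 passed it between BM-MSC and BMAC, beside 2.90% higher and 3.21% lower of all genes. IDH1, which makes 2-oxoglutarate in the cytosol, stood at 109.9 CPM in BM-MSC and 52.2 in BMAC, against 22.3 CPM in PBMC. ATP7A, the pump that loads copper onto secreted enzymes, stood at 33.7 CPM in BM-MSC and 48.0 in BMAC, against 108.6 CPM in PBMC, opposite in direction to the lysyl oxidases. ATOX1, a copper chaperone, stood at 75.3, 51.6 and 16.7 CPM in BM-MSC, BMAC and PBMC, but its overlapping row LOC110257252 held more counts than it in each library.

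Over the 3 libraries the genes nearest to LOX by Euclidean distance of log2(CPM + 1) were ADGRA2, EGFR and SSPN, at distances of 0.09, 0.49 and 0.53. ADGRA2, an adhesion receptor, stood at 89.7 CPM in BM-MSC and 202 in BMAC, against 1.29 CPM in PBMC. Those nearest to SERPINH1 were AMOTL2, MXRA8 and PHLDA3, at 0.57, 0.75 and 0.80. With 3 libraries many genes can share such a pattern, and the distances are descriptions.

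Several rows that overlap in the annotation had nearly equal counts. EFEMP2 and MUS81 had 2646 and 2649 counts in BM-MSC and 1997 and 2015 in BMAC, and PPIB and SNX22 had 1908 and 1971 in BM-MSC, 2700 and 2689 in BMAC, and 588 and 595 in PBMC. How the authors' counting treated reads in overlapping genes is not given in the sources used here.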
